A study of Mus musculus with 7 samples.

Results

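Messenger RNA of 7 matrix genes was followed across 7 droplet single-cell libraries of mouse brain: 6 small leucine-rich proteoglycans (Prelp, Bgn, Dcn, Lum, Ogn and Fmod) and the fibulin Efemp1. The members were taken by gene symbol, 7 of the 31053 genes in each deposited matrix. They were chosen by measured values of these same cells, among them, as far as known, the levels in P60 astrocytes, so their levels by cell class and their stage difference in astrocytes are given as a description, without a test. The libraries, made with the 10x Chromium 3' kit, were P2, P7 and P15 cortex and P7 SVZ (called early postnatal in the labels) and P60 cortex, P60 grey matter and P60 white matter (called adult). P7 SVZ, the ventricular-subventricular zone of the dorsal and lateral ventricle wall, came from C57BL/6 mice and every other library from CD1 mice, all without treatment. The cortex dissections reached down to the ventricle and so held subventricular zone and white matter as well as grey matter, the grey matter library was cut above the white matter, and the white matter library held corpus callosum with the subventricular zone. Each age and region is 1 library, and nothing in the labels says which libraries came from separate animals, so any p-value measures the spread between these libraries.

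Small leucine-rich proteoglycans are secreted proteins with a core of leucine-rich repeats, most of which carry glycosaminoglycan chains. Biglycan (Bgn) and decorin (Dcn), of class I, carry chondroitin or dermatan sulfate and bind collagen fibrils and transforming growth factor beta. Fibromodulin (Fmod), lumican (Lum) and PRELP (Prelp), of class II, bind fibrillar collagen, and PRELP also binds the basement membrane proteoglycan perlecan. Osteoglycin (Ogn), also called mimecan, is of class III, and fibulin-3 (Efemp1) is a secreted glycoprotein with calcium-binding EGF-like domains, unrelated to the proteoglycans in sequence. In brain these proteins are best known from the meninges and the walls of blood vessels, where fibroblasts and mural cells build a collagen matrix that the neural tissue itself largely lacks.

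The genes lay in a few tight groups of the genome (mm10, GENCODE M21). Prelp (chromosome 1, 133910304 to 133921414, minus strand) stood between Optc and Fmod (134037254 to 134048277, plus strand), both of the same family. Dcn (chromosome 10, 97479609 to 97518143) was followed on the plus strand by Lum (97565128 to 97572703), Kera and Epyc. Ogn (chromosome 13, 49608046 to 49624501) was the last of a plus-strand run of Ecm2, Aspn, Omd and Ogn, and this run lies inside the minus-strand gene Cenpp, which had 1622 UMIs (unique molecules) in the kept cells. Whether counting used the strand is not given in the sources used here, so reads of Ogn and Cenpp may not be separable. Efemp1 (chromosome 11, 28853204 to 28926743, plus strand) and Bgn (X chromosome, 73483602 to 73495933, plus strand) overlapped no other gene, and the 1 gene overlapping Prelp, Gm15851, had 0 UMIs.

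The upstream sequences of Prelp, Efemp1 and Bgn are shown because the first 2 were high in adult astrocyte-like cells and the third was high in early ones. They are the 250 bases before the RefSeq start (GRCm38.p6), 5′ to 3′ on the strand of the gene, and capitals mark TTGGC (the half-site of nuclear factor I) and GGGCGG (the GC box) on either strand.
Prelp, chr1:133921402-133921651, minus strand: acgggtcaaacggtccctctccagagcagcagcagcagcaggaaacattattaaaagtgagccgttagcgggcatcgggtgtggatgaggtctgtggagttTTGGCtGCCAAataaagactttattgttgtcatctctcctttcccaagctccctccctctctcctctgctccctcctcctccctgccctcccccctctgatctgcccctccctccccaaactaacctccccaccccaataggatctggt
Efemp1, chr11:28852955-28853204, plus strand: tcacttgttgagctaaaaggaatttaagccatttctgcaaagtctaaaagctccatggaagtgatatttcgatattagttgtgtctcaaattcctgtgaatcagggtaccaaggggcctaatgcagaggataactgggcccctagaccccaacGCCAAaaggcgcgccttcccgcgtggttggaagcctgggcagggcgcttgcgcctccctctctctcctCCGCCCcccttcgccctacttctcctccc
Bgn, chrX:73483351-73483600, plus strand: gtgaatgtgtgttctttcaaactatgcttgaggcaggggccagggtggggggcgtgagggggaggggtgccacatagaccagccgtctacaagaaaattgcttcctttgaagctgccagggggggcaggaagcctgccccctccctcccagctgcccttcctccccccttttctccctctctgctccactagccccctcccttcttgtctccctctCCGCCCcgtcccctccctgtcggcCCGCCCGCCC
The Prelp window held TTGGC on each strand, 2 matches set 1 base apart, and no GC box. Efemp1 had 1 TTGGC and 1 GC box, and Bgn had 3 GC boxes, the last 2 of them overlapping, and no TTGGC. Of 32851 mouse promoter windows of this length, 41.5% held TTGGC and 32.7% held GGGCGG, so neither motif is rare. TATAAA, held by 12.4% of windows, and TTCNNNGAA (a STAT site), held by 7.02%, were searched on both strands too and matched none of the 3. CANNTG (the E-box, 66.2% of windows) matched once each in Efemp1 and Bgn. The windows held 5, 10 and 7 CG dinucleotides in the same order, against a median of 6.

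After filtering, 20709 cells of 25747 barcodes were kept and fell into 63 clusters, formed without the 7 genes, which were named "-like" from other markers. The levels below are in CPM, the UMIs of the gene over all UMIs of a class in 1 library scaled to a common total, with a 95% Poisson interval that covers counting error only. The UMIs come from transcript 3' ends and were not scaled by length, so levels are compared for 1 gene at a time. Median UMIs per kept cell ran from 2791 in P60 cortex to 9537 in P2 cortex. P7 SVZ lost most to the mitochondrial limit, with 39.8% of its barcodes above it. In all, 140 kept cell barcodes occurred in more than 1 library. In kept cells the genes had 3481 (Bgn), 1481 (Dcn), 1058 (Prelp), 471 (Lum), 303 (Efemp1), 206 (Ogn) and 150 (Fmod) UMIs.

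Apart from Dcn and Lum, the genes differed in how their UMIs were spread over the cell classes. Dcn and Lum were nearly confined to 33 fibroblast-like cells, which held 94.8% and 95.1% of their UMIs while making up 0.159% of kept cells. Efemp1 lay mainly in astrocyte-like cells, with 72.6% of its UMIs. Prelp was shared by astrocyte-like (39.8% of its UMIs), radial precursor-like (20.5%), ependymal-like (16.2%), fibroblast-like (11.3%) and mural-like (9.64%) cells. Bgn was the most widely spread. Mural-like, astrocyte-like, fibroblast-like, endothelial-like, committed oligodendrocyte precursor-like and radial precursor-like cells each held between 10.7% and 19.0% of its UMIs. In the same order these classes made up 0.946%, 17.9%, 0.159%, 1.82%, 4.41% and 9.11% of kept cells. The share of Bgn UMIs was thus near the share of cells in astrocyte-like and radial precursor-like cells. Ogn was found in radial precursor-like (44.2%), fibroblast-like (22.8%) and mural-like (20.9%) cells, and Fmod in mural-like (38.0%) and fibroblast-like (28.7%) cells. Microglia-like cells, which serve as a measure of free RNA, had pooled levels of 0.367 CPM for Prelp, 0.210 for Efemp1, 0.472 for Bgn and 0.210 for Dcn, and 0 for Lum, Ogn and Fmod.

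**Figure D1:**
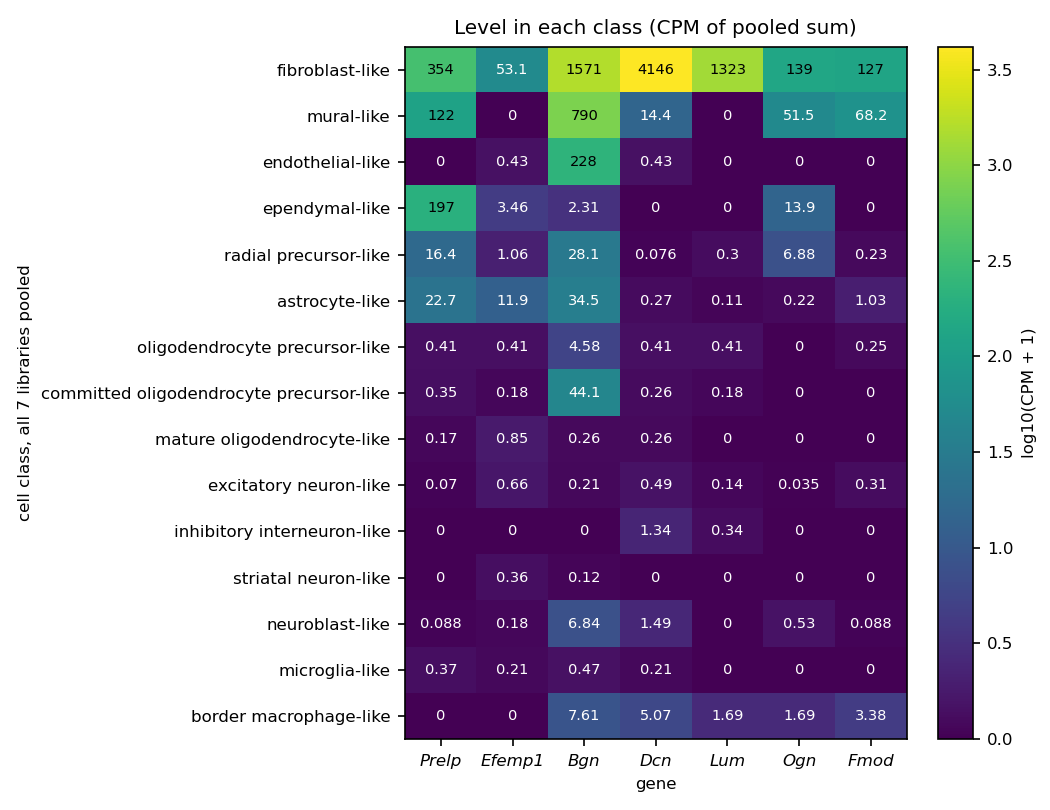
Level of each gene (columns) in each cell class (rows), all 7 libraries pooled, in CPM printed in the boxes and as log10(CPM + 1) in colour. Fibroblast-like cells are bright for all 7 genes (53.1 CPM for Efemp1 up to 4146 for Dcn), while Prelp is also bright in ependymal-like (197) and mural-like (122) cells and Bgn in mural-like (790) and endothelial-like (228) cells.

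In astrocyte-like cells Prelp and Efemp1 were adult genes and Bgn an early one. Prelp, the class II proteoglycan, stood at 0 CPM in P2 cortex, 1.46 in P7 cortex, 0.679 in P7 SVZ and 7.62 in P15 cortex, and at 112, 98.0 and 109 CPM in P60 cortex, grey and white matter. All 3 adult values lay far above the 4 early ones, 106 ± 7.42 (SD, n = 3) against 2.44 ± 3.50 CPM (SD, n = 4). Groups that did not overlap were seen for 25.1% of all genes tested in this class. The adult Prelp values differed from each other by less than their intervals. Pooled over libraries the adult level was 38.8 times the early one (95% interval 28.3 to 54.5, counting error only). That ratio was 89.2 without P15 cortex, 23.0 without P7 cortex and between 35.9 and 39.3 without any other 1 library. Along the cortex libraries the step came late: P15 was 5.20 times P7 (2.62 to 10.9), and P60 was 14.7 times P15 (10.1 to 22.3).

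Efemp1, the fibulin, had the same ordering in astrocyte-like cells with a smaller step. Its levels were 0, 1.13, 2.72 and 6.83 CPM in P2 cortex, P7 cortex, P7 SVZ and P15 cortex, and 49.7, 80.7 and 47.1 CPM in P60 cortex, grey and white matter. The groups did not overlap, as for 25.1% of all genes tested in this class, at 59.2 ± 18.7 (SD, n = 3) against 2.67 ± 2.99 CPM (SD, n = 4). The pooled adult level was 19.9 times the early one (14.0 to 28.7). It was 42.5 without P15 cortex, 10.9 without P7 cortex and between 18.6 and 24.9 without any other 1 library. P15 cortex was 6.07 times P7 cortex (2.83 to 14.1) and P60 cortex 7.27 times P15 cortex (4.76 to 11.5).

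Bgn, the class I proteoglycan, ran the other way in astrocyte-like cells. It stood at 19.9 CPM in P2 cortex, 51.6 in P7 cortex, 95.7 in P7 SVZ and 5.26 in P15 cortex, and at 0.357, 0 and 3.63 CPM in the 3 adult libraries, where 2 UMIs were found in all. The early level pooled was 72.2 times the adult one, with a wide interval (19.9 to 598) because of those 2 UMIs. It was 26.3 without P60 cortex, 132.8 without P60 white matter and between 49.4 and 93.5 without any other 1 library. The P15 value was already 0.102 times the P7 cortex value (0.0616 to 0.159). Early levels varied widely, at 43.1 ± 40.0 CPM (SD, n = 4) against 1.33 ± 2.0 in the adult libraries (SD, n = 3).

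The other 4 genes were at or near 0 in astrocyte-like cells. Fmod had 11 adult and 8 early UMIs there, the early ones all from P15 cortex, where it stood at 2.10 CPM against 3.22, 5.76 and 0 CPM in P60 cortex, grey and white matter. Dcn, Lum and Ogn had 5, 2 and 4 UMIs in 3708 cells. Only Prelp, Efemp1 and Bgn passed the filter on low counts in this class. The stage fit over all 9951 genes that passed called 57, or 0.573%, at an adjusted p under 0.05 (edgeR's quasi-likelihood test, Benjamini-Hochberg adjustment), and 25.1% of genes had groups that did not overlap. Nothing is read from the members' own place in that fit, since this contrast was treated as one that chose them, although the exact values used in the choice are not given. The count of 57 became 2583 without P15 cortex, 3 without P2 cortex, 6 without P7 SVZ, 1 without P60 cortex, and 0 without P7 cortex, P60 grey matter or P60 white matter.

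**Figure D2:**
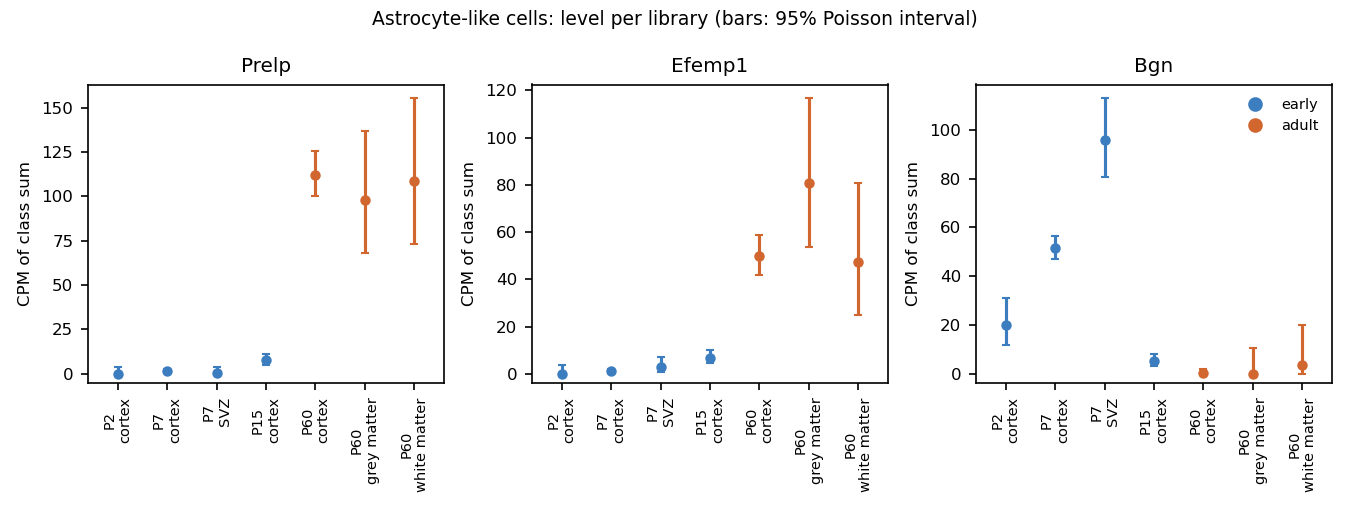
Prelp, Efemp1 and Bgn in astrocyte-like cells: level in CPM (linear axis) for each of the 7 libraries, early in blue and adult in orange, with 95% Poisson intervals. Prelp and Efemp1 are at 7.62 CPM or less in the 4 early libraries and at 47.1 or more in the 3 adult ones, while Bgn peaks at 95.7 CPM in P7 SVZ and is at 3.63 or less in the adult libraries.

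The share of astrocyte-like cells with a Prelp UMI gave the same picture at equal depth. With each cell thinned to 2000 UMIs, the share was 17.6%, 22.9% and 17.5% in P60 cortex, grey and white matter, and 0%, 0.324%, 0.562% and 0.980% in P2 cortex, P7 cortex, P7 SVZ and P15 cortex. Without thinning the adult shares were 22.6%, 21.1% and 22.1% and the largest early share was 3.93%. Thinning left out 208 of 1061, 45 of 128 and 24 of 104 cells of the adult libraries, and 7 of 137, 128 of 1361, 2 of 180 and 23 of 737 of the early ones, as too shallow. In microglia-like cells, at median depths of 2474, 7156 and 4160 UMIs in the P60 libraries against 2584, 2345.5 and 2557 in astrocyte-like cells, the thinned share was 0.255%, 0% and 0.308%. For Efemp1 the thinned share in astrocyte-like cells was 10.2%, 13.3% and 10.0% in the adult libraries and at most 1.82% in the early ones, and in microglia-like cells at most 0.382%. For Bgn it was 19.7% in P7 SVZ, 8.27% in P7 cortex, 4.62% in P2 cortex and 0.840% in P15 cortex, and at most 1.25% in adult libraries.

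Different clusters held most astrocyte-like cells at each age: cluster 0 in the P60 libraries, cluster 9 in P15 cortex, clusters 2 and 15 in P7 cortex, cluster 15 in P2 cortex and cluster 39 in P7 SVZ. Within shared clusters the level went with the age of the library. In cluster 9, led by Prss56, Gjb6 and Mt2, Prelp stood at 7.94 CPM in 660 cells of P15 cortex, 85.9 in 38 cells of P60 cortex and 64.4 in 29 cells of grey matter. In cluster 0, led by Grin2c, Fam107a and Ntsr2, it stood at 4.65 CPM in 66 cells of P15 cortex (1 UMI) and between 109 and 113 in the P60 libraries. Efemp1 in cluster 9 was 7.37 CPM in P15 cortex against 57.3 and 110 in P60 cortex and grey matter.

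Bgn separated the astrocyte-like clusters of P7 cortex. In cluster 15, whose leading genes included Gfap and Tnc, it reached 159 CPM (142 to 178) in 236 cells of P7 cortex, and 113 of these cells held 315 of the library's 458 astrocyte-like UMIs. In cluster 2, led by Igfbp2 and Aqp4, 1060 cells of the same library had 21.1 CPM (17.7 to 25). Cluster 39, with Tnc and Fabp7 among its leading genes and nearly all from P7 SVZ, had 91.6 CPM. P2 cortex cells in cluster 15 had 21.5 CPM (12.9 to 33.6), below the P7 cells of that cluster.

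Markers of other cell types were also found in the astrocyte-like sums. The 10 mural markers summed to between 51.4 and 151 CPM in early and between 110 and 174 in adult libraries, with 2 to 7 and 3 to 7 of the 10 at 0. The sum over the same markers in mural-like cells was 32949 CPM or more. The 9 ependymal markers summed to between 27.3 and 117 CPM in early and between 46.1 and 111 in adult libraries. Of the 9, 0 to 4 were at 0 in early and 3 to 8 in adult libraries. Foxj1, which marks ciliated cells, was at 1.07, 0 and 0 CPM in the adult ones. The 10 fibroblast markers summed to between 8.39 and 21.6 CPM in early and between 25.9 and 29.0 in adult libraries, where Col1a1 made up 24.3, 23.1 and 29.0 CPM and 8 or 9 of the 10 were at 0. Microglia markers were higher in the adult sums (127 to 818 CPM) than in the early ones (17.0 to 98.6), and mature oligodendrocyte markers summed to between 170 and 856 CPM in adult and between 21.0 and 808 in early libraries. The part of these markers in the result was not tested. The 11 astrocyte markers were all present in every library, at 8595 to 22057 CPM in early and 16865 to 20778 CPM in adult sums.

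Grey and white matter were compared in adult astrocyte-like cells. The white matter level was 1.11 times the grey matter level (0.656 to 1.87, from 30 and 34 UMIs). For Efemp1 the ratio was 0.584 (0.278 to 1.17, from 13 and 28 UMIs). Both intervals contain 1 and still allow differences approaching 2-fold or more, and with 1 library a side there is no replicate check. At P7 Bgn in astrocyte-like cells was higher in SVZ than in cortex, 1.86 times (1.53 to 2.25), where strain and region cannot be told apart.

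Around the ventricle Prelp marked ependymal-like and part of the radial precursor-like cells. Ependymal-like cells, the ciliated lining of the ventricle, had 171 Prelp UMIs in 87 cells, and 83.9% of them had at least 1. By library the level was 62.2 CPM in P2 cortex, 176 in P7 cortex, 149 in P7 SVZ, 423 in P15 cortex, 445 in P60 cortex and 354 in P60 white matter, from 13, 35, 6, 17, 7 and 9 cells. Only P7 cortex reached the minimum of 20 cells, and the intervals of P15 and P60 cortex (307 to 568 and 243 to 747) lie above that of P7 cortex (137 to 223). Grey matter, cut away from the ventricle, had no ependymal-like cell.

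Radial precursor-like cells, which resemble the neural stem and progenitor cells of the ventricle wall, had lower and graded Prelp levels: 4.40 CPM in P2 cortex, 19.7 in P7 cortex, 16.4 in P7 SVZ and 38.2 in P15 cortex. P7 cortex was 4.47 times P2 (2.25 to 10.1) and P15 1.94 times P7 (1.14 to 3.15), while SVZ and cortex at P7 did not differ beyond counting error (ratio 0.834, 0.619 to 1.13). At 2000 UMIs per cell the shares with a UMI were 1.42%, 5.24%, 3.16% and 11.3% in the same order. Most of the UMIs lay in clusters 6 and 12, which had Gfap and Veph1 among their leading genes, at 23.8 and 26.5 CPM. The ependymal markers summed to between 112 and 268 CPM in the radial precursor-like sums, and their part in the Prelp level was not tested. The step from P7 to P15 depended on how cells were named. With the mitochondrial limit at 20% P15 was 1.61 times P7 (0.630 to 3.47, from 7 and 86 UMIs), an interval that contains 1. In that setting 15 Prelp UMIs of P15 cortex lay in a class named excitatory intermediate precursor-like, at 57.8 CPM.

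Along the cortex libraries Ogn followed the opposite order in radial precursor-like cells. It stood at 22.0 CPM in P2 cortex, 7.56 in P7 cortex, 2.14 in P7 SVZ and 0 in P15 cortex, with an upper limit of 6.70 CPM. P7 was 0.343 times P2 (0.212 to 0.550), and SVZ was 0.283 times cortex at P7 (0.137 to 0.551). Cluster 6 held 82 of the 91 Ogn UMIs of this class, with 30.2 CPM in P2 and 10.1 in P7 cortex. It had 521 cells of P7 cortex and 11 of P7 SVZ, so strain, region and cluster cannot be told apart in the SVZ ratio. Ependymal-like cells also had Ogn, 12 UMIs in 87 cells. Bgn in radial precursor-like cells was 9.79, 36.4, 28.6 and 27.3 CPM in P2 cortex, P7 cortex, P7 SVZ and P15 cortex, and Efemp1 1.15 CPM or less.

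**Figure D3:**
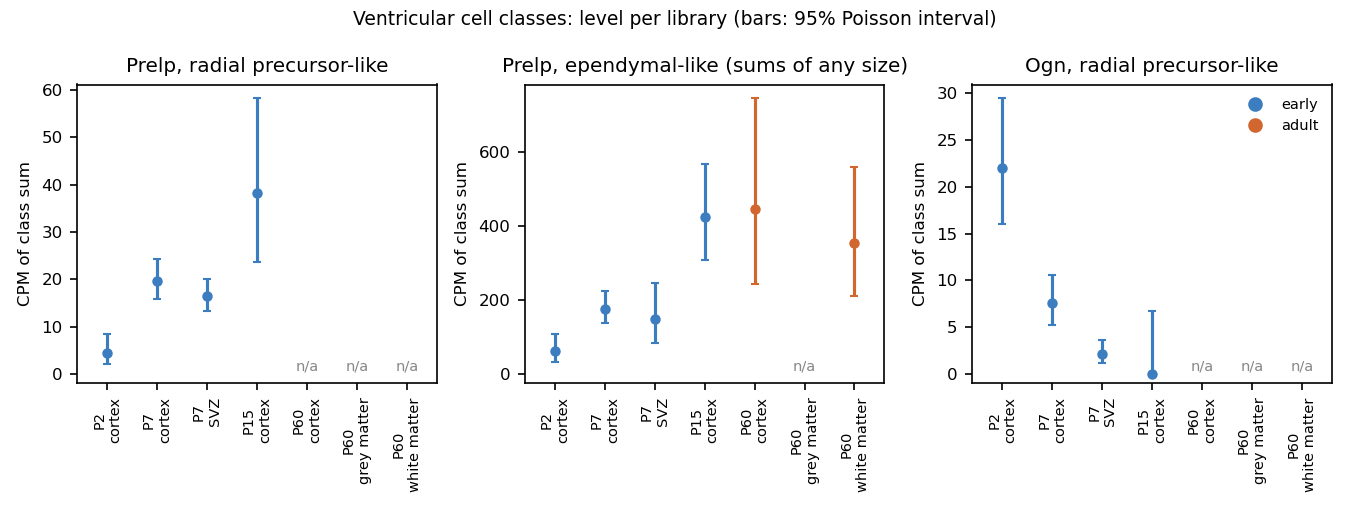
Prelp in radial precursor-like and ependymal-like cells and Ogn in radial precursor-like cells: level in CPM (linear axes) by library with 95% Poisson intervals, early in blue and adult in orange. Libraries marked n/a had under 20 radial precursor-like cells or no ependymal-like cell. Prelp goes from 4.40 to 38.2 CPM between P2 and P15 cortex in radial precursor-like cells, while Ogn goes from 22.0 to 0.

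In endothelial-like cells, which line blood vessels, Bgn fell between early and adult libraries. It stood at 414 CPM in P7 cortex and 81.4 in P15 cortex, and at 0, 4.26 and 0 CPM in P60 cortex, grey and white matter, a single adult UMI in 212 cells. The groups did not overlap, as for 39.8% of genes in this class (248 ± 235, SD, n = 2, against 1.42 ± 2.46 CPM, SD, n = 3), and the log2 fold change was -6.94 ± 1.09 (SE, adjusted p = 0.00546, edgeR's quasi-likelihood test). Bgn passed the low-count filter of that fit through the early libraries alone, where it was high. The members were also chosen from values of these cells, so the call is not independent evidence of a fall. In that fit 415 of 4242 genes, 9.78%, were called, so a call was common in this class. That count was 182 without P60 cortex, 271 without P60 grey matter, 118 without P60 white matter and 641 without P15 cortex. The call was lost without P60 cortex (adjusted p = 0.0503) or P60 white matter (0.0507), and kept without grey matter (0.0228), P7 cortex (0.00124) or P15 cortex (7.0e-14).

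The endothelial-like cells of P15 cortex were split over both endothelial clusters. Its 29 cells in cluster 45, where most other cells came from P7 cortex, had 136 CPM (98.9 to 183), and its 36 cells in cluster 27, where most others came from P60 libraries, had 8.27 CPM (1.0 to 29.9). When vascular cells were clustered alone, 366 and 154 of the Bgn UMIs fell in a pair of subclusters with 386 and 222 CPM, and the subclusters led by Mt2 and by Gkn3 had 0 in 91 and 66 cells. Mural markers summed to 21.2 and 37.9 CPM in the early endothelial-like sums and to between 55.6 and 89.4 in the adult ones, and the 10 fibroblast markers to between 59.9 and 79.6 CPM in the early and between 38.0 and 93.7 in the adult ones. Their part in the Bgn level was not tested. None of the other 6 genes exceeded 1 UMI in the 377 endothelial-like cells.

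In the oligodendrocyte lineage Bgn was highest in committed oligodendrocyte precursor (COP)-like cells in P7, P15 and P60 cortex and P60 white matter. COP cells stand between the dividing precursor and the mature myelinating cell. Their Bgn level was 0 CPM in P2 cortex, 21.8 in P7 cortex, 0.882 in P7 SVZ and 56.7 in P15 cortex, and 137 and 215 CPM in P60 cortex and white matter, and grey matter had too few cells. In P15 cortex the level went from 11.0 CPM (7.60 to 15.5) in oligodendrocyte precursor (OPC)-like cells to 56.7 (50.5 to 63.5) in COP-like and 0.211 (0.00533 to 1.17) in mature oligodendrocyte-like cells. In P60 white matter it went from 16.5 (6.07 to 36.0) to 215 (174 to 262) and 0.412 CPM (0.0499 to 1.49). P60 cortex had 2.47 (0.0625 to 13.8), 137 (97.0 to 188) and 0 CPM (upper limit 2.07). In P7 cortex OPC-like cells had 3.68 CPM (1.68 to 6.99), below the COP-like level, whereas in P2 cortex and P7 SVZ they had 0.967 and 1.37 CPM, not below the COP-like levels of 0 and 0.882. Grey matter OPC-like cells had 0 UMIs.

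Both adult COP-like values lay above all 4 early ones, 176 ± 54.9 (SD, n = 2) against 19.9 ± 26.6 CPM (SD, n = 4), with a log2 fold change of 2.78 ± 0.87 (SE). The difference did not pass the test (adjusted p = 0.334, edgeR's quasi-likelihood test), which called 3 of 9365 genes, 0.0320%, and in which 27.4% of genes had groups that did not overlap. Leaving out P15 cortex turned the count of 3 into 84, leaving out P7 SVZ into 1, and leaving out P7 cortex, P60 cortex or P60 white matter into 0. Without P15 cortex Bgn passed, at a log2 fold change of 4.01 and an adjusted p of 0.0401. Along the cortex libraries P15 was 2.60 times P7 (1.96 to 3.50) and P60 2.42 times P15 (1.68 to 3.39), by counting error only. At 2000 UMIs per cell the share with a Bgn UMI was 16.7% and 22.9% in P60 cortex and white matter, against 10.3% in P15 cortex and at most 3.28% in the others.

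The COP-like level differed between clusters of 1 library. Clusters 25 and 38, with Bmp4 and Gpr17 among the leading genes, had 121 and 130 CPM in P15 cortex, and cluster 46, which had Mag among its leading genes, had 1.60 CPM in 85 cells of the same library. In cluster 36 the level was 6.49 CPM (1.34 to 19.0) in P7 cortex, 23.1 (15.5 to 33.1) in P15 cortex and 27.2 (7.40 to 69.6) in P60 cortex, which had 26 of its 42 COP-like cells there. P7 SVZ cells were nearly all in cluster 42 (152 of 169), which had 2 Bgn UMIs, and SVZ was 0.0404 times cortex at P7 (0.00478 to 0.153) with strain, region and cluster moving together. In COP-like sums the 10 mural markers summed to at most 10.8 CPM and the 10 fibroblast markers to at most 4.43. The 10 endothelial markers summed to between 42.1 and 50.5 CPM in adult and between 53.9 and 104 in early sums. In astrocyte-like sums they stood lower, at 17.2 to 25.4 and 15.2 to 39.2 CPM. The part of these markers in the Bgn level was not tested. No member passed the low-count filter in OPC-like, microglia-like or neuroblast-like cells, where edgeR's quasi-likelihood test called 6.83%, 0.0314% and 0.0224% of genes.

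**Figure D4:**
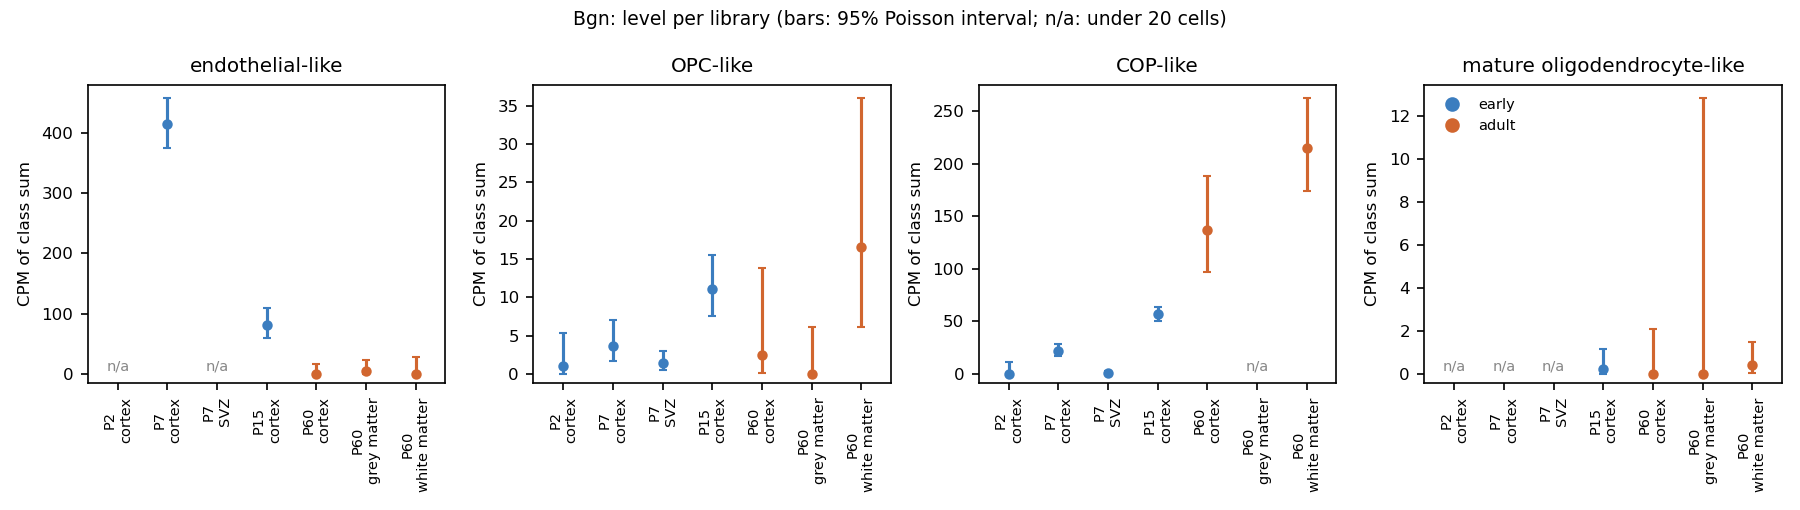
Bgn in endothelial-like, OPC-like, COP-like and mature oligodendrocyte-like cells: level in CPM (linear axes that differ between panels) by library with 95% Poisson intervals, early in blue and adult in orange, n/a where a library had under 20 cells. Endothelial-like cells go from 414 CPM in P7 cortex to 4.26 or less at P60, whereas COP-like cells reach 137 and 215 CPM at P60, far above the OPC-like and mature cells of those libraries.

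Mural-like cells, the pericytes and smooth muscle cells of vessel walls, had Bgn, Prelp, Fmod and Ogn, and less Dcn. Of 196 such cells, 3 libraries gave at least 20. Bgn stood at 570 CPM in P15 cortex, 479 in P60 cortex and 448 in P60 white matter. Prelp was 133, 275 and 190 CPM in the same order, Ogn 85.9, 84.6 and 30.7, and Fmod 242, 28.2 and 6.14. P60 cortex over P15 cortex was 0.117 for Fmod (0.0299 to 0.330) and 2.07 for Prelp (1.14 to 3.91), both beyond counting error, and 0.841 for Bgn (0.596 to 1.19) and 0.985 for Ogn (0.398 to 2.46), which were not. Efemp1 and Lum had 0 UMIs in all 196 cells, with upper limits of 4.42 CPM, and Dcn had 12 (14.4 CPM, 7.42 to 25.1).

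With sums down to 15 cells the mural-like class could be tested, 3 early libraries against 2 adult ones. Prelp then stood at 38.9, 12.6 and 133 CPM in P7 cortex, P7 SVZ and P15 cortex against 275 and 190 in P60 cortex and white matter, groups that did not overlap (log2 fold change 1.97 ± 0.76, adjusted p = 0.377, edgeR's quasi-likelihood test). Bgn was 1537, 602 and 570 CPM against 479 and 448, also without overlap (-0.91 ± 0.47, adjusted p = 0.499, edgeR). P60 grey matter, with 12 cells, fell below the limit and stood at 127 CPM (46.5 to 276) for Prelp and 971 (711 to 1295) for Bgn. Both values lie within the early range, so neither separation holds with that library. Fmod (84.3, 0 and 242 against 28.2 and 6.14 CPM) and Ogn (51.9, 6.28 and 85.9 against 84.6 and 30.7) did not pass either, with adjusted p of 0.547 and 0.933 (edgeR). This test called 0 of 3010 genes (0%), with 358 at an unadjusted p under 0.05, and 30.9% of the genes had groups that did not overlap.

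The mural-like clusters differed in Fmod. Cluster 52, with the smooth muscle genes Acta2, Tagln and Myh11 among its leading genes, had 142.9 CPM (107 to 187), and cluster 43, led by the pericyte genes Vtn, Rgs5 and Higd1b, had 8.62 (2.35 to 22.1). Prelp stood at 135 and 112 CPM, and Bgn was 669 and 887 CPM. P15 cortex had 17 of its 20 mural-like cells in cluster 52, P60 cortex 21 of 55 and P60 white matter 17 of 65, so the mix of clusters moved with the Fmod level. Within cluster 52 Fmod stood at 261 CPM (177 to 370) in 17 cells of P15 cortex, 35.2 (7.26 to 103) in 21 cells of P60 cortex and 11.8 (0.299 to 65.9) in 17 cells of P60 white matter, so P15 was above both beyond counting error. The 10 fibroblast markers summed to 1241 CPM in P15 mural-like cells, with 7 of the 10 at 0, and to 338 and 416 in the P60 ones, with 4 or 5 at 0. Among them Col1a1 stood at 0 CPM in P15 cortex, 14.1 in P60 cortex and 18.4 in P60 white matter. The part of these markers in the Fmod level was not tested.

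**Figure D5:**
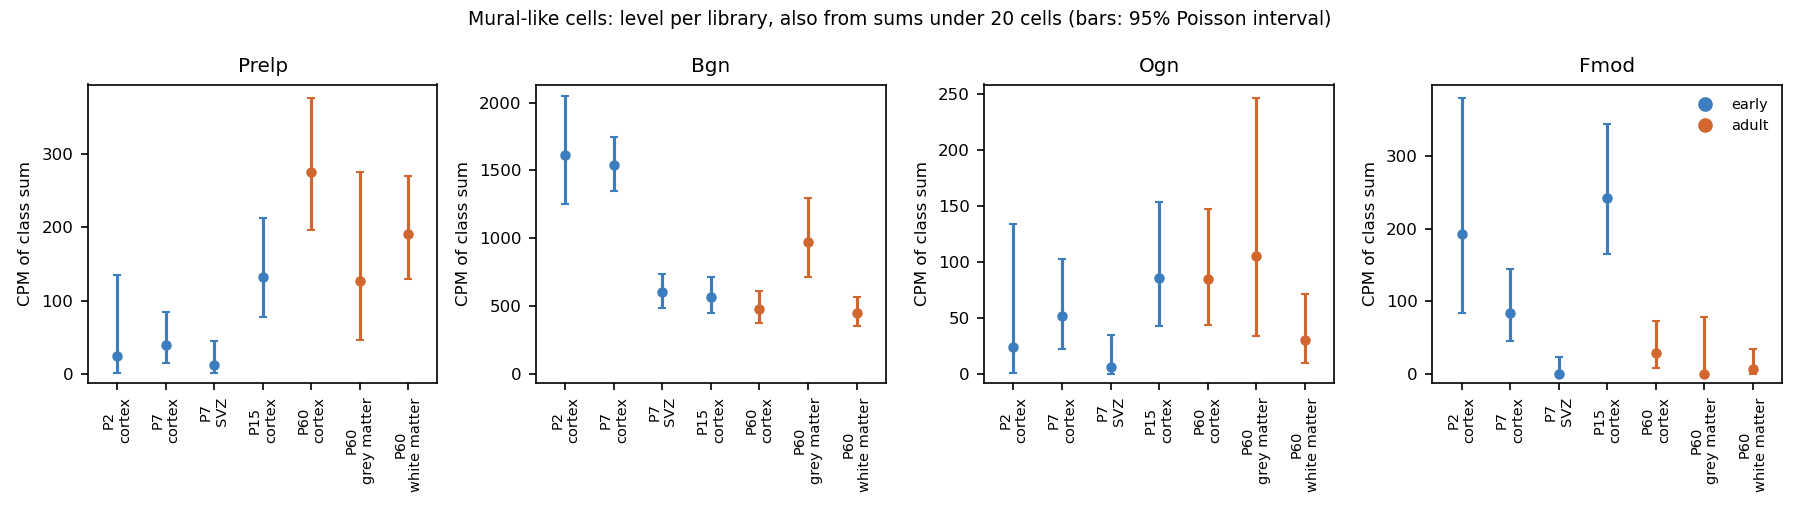
Prelp, Bgn, Ogn and Fmod in mural-like cells: level in CPM (linear axes that differ between panels) by library with 95% Poisson intervals, early in blue and adult in orange. P2 cortex, P7 cortex, P7 SVZ and P60 grey matter rest on 6, 19, 19 and 12 cells. Prelp is 38.9 CPM or less before P15 and 127 or more from P15 on, whereas Fmod is 28.2 or less at P60.

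The fibroblast-like cells, a cluster led by the collagen genes Col1a1, Col1a2 and Col3a1, held all 7 genes. Of the 33 cells, 14 came from P7 cortex, 14 from P15 cortex, 3 from P2 cortex and 1 each from P60 cortex and white matter, so no library reached 20 cells. Pooled, they had 4146 CPM of Dcn, 1571 of Bgn, 1323 of Lum, 354 of Prelp, 139 of Ogn, 127 of Fmod and 53.1 of Efemp1. Between P7 and P15 cortex Dcn was 2996 (2756 to 3251) and 5103 CPM (4689 to 5544), Lum 1006 and 1817, Bgn 1448 and 2054, and Prelp 234 and 484. Fmod went the other way, at 198 (140 to 272) and 36.5 CPM (9.95 to 93.5), and Efemp1 had 0 UMIs in the 14 P7 cells and 8 in the 14 P15 cells. The P60 cells, 1 per library, had 86 Dcn UMIs each. Bgn was detected in all 33 cells, Dcn in 32 and Lum in 30.

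Neurons had few UMIs of any of the 7 genes. Efemp1 in excitatory neuron-like cells stood at 6.90 CPM in P15 cortex (11 UMIs in 89 cells) and 4.31 in P60 cortex (6 UMIs in 143 cells), against 0 in 1746 cells of P2 cortex. Dcn in P7 SVZ was 4.59 CPM in excitatory neuron-like cells, 12 UMIs in 2.27% of 88 cells, and 2.74 CPM in neuroblast-like cells. Bgn in neuroblast-like cells was 8.10 CPM in P7 cortex and 7.50 in P7 SVZ.

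Some other members of the family were mainly mural, and others were rare or lay elsewhere. Aspn and Ecm2, class I neighbours of Ogn on chromosome 13, had 329 and 131 CPM in mural-like cells and 0.0540 and 0.486 in astrocyte-like cells. Kera and Epyc, the corneal and cartilage members next to Lum, had 1 UMI each in all kept cells. Of the 11 proteoglycans of the family that are not members only Chadl passed the filter in astrocyte-like cells (51.3 ± 13.9, SD, n = 4, early against 34.2 ± 20.3 CPM, SD, n = 3, adult), and it was not called there (adjusted p = 0.295, edgeR) or in COP-like cells (0.983). Of 5 other fibulins, 3 were tested in astrocyte-like cells and 0 called, with a median log2 fold change of -0.58 against -0.0078 over all genes. Among them Fbln2 was 29.6 ± 27.1 CPM in early and 0.357 ± 0.619 in adult libraries (SD, n = 4 and 3, adjusted p = 0.0680, edgeR).

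The enzymes that build the sugar chains were tested from fixed lists. Of 12 tested enzymes of the linker and the chondroitin or dermatan chain, 0 were called in astrocyte-like cells (median log2 fold change 0.086) and 0 in COP-like cells (0.14 against -0.015 over all genes), and 0 of this list passed the filter in endothelial-like cells. Of the keratan chain enzymes 0 of 4 were called in astrocyte-like cells. In endothelial-like cells, where 4.27% of all genes tested were called lower, 2 of 3 were called lower. These were the sulfotransferases Chst1, from 219 ± 13.7 to 3.96 ± 3.81 CPM (log2 fold change -5.83 ± 0.55, adjusted p = 0.000674, edgeR), and Chst2, from 121 ± 41.3 to 19.0 ± 12.5 CPM (-2.54 ± 0.49, adjusted p = 0.0118, edgeR). The call of Chst2 was lost without P60 white matter (adjusted p = 0.0619, edgeR), and that of Chst1 was kept without any 1 adult library.

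Of growth factors and receptors that the family binds, 0 of 5 were called in astrocyte-like, 0 of 5 in endothelial-like and 0 of 3 in COP-like cells. Over all genes tested in these classes 0.573%, 9.78% and 0.0320% were called. Of matrix proteases and their inhibitors, 1 of 3 was called in endothelial-like cells, where the metalloprotease inhibitor Timp3 rose from 144 ± 124 to 685 ± 309.6 CPM (SD, n = 2 and 3, adjusted p = 0.0410, edgeR). That call was lost without any 1 of the 3 adult libraries, at adjusted p between 0.0547 and 0.150 (edgeR). In astrocyte-like and COP-like cells 0 of 6 were called. In OPC-like cells, where 3.16% of all genes tested were called higher, 2 of 8 rose. These were Timp3 from 72.3 ± 12 to 160.3 ± 25.3 CPM and the metalloprotease Mmp2 from 15.2 ± 8.82 to 61.3 ± 23.3 CPM (SD, n = 4 and 3, adjusted p = 0.0241 and 0.0222, edgeR). Both calls were lost without any 1 of the 3 adult libraries (adjusted p from 0.0535 to 0.132, edgeR), and that of Timp3 also without P7 cortex (0.0713).

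Genes with the most similar pattern differed for each member. The measure was Pearson's r of log2(CPM + 10) over 68 sums of a class in a library with at least 20 cells, among 15131 genes with at least 100 UMIs. These sums share libraries and depth, the fibroblast-like cells entered none of them, and the values are a description. For Prelp the closest were Rarres2 (0.92), Sod3 (0.88), the extracellular superoxide dismutase, and Ednra (0.84), an endothelin receptor of mural cells. Rarres2 is on the list of 9 ependymal markers, but only 1 of the sums was ependymal-like. In mural-like sums that list stood at 461 to 516 CPM with 8 of its 9 genes at 0. For Efemp1 they were Greb1 (0.94), Sycp2 (0.94) and Gm26843 (0.93), and for Bgn Ajuba (0.77), Lamc1 (0.76), a laminin chain, and Heyl (0.75), a Notch target. Ogn was closest to Acta2 (0.92), S1pr3 (0.92) and Kcnmb1 (0.92), and Fmod to Actg2 (0.95), Col3a1 (0.93) and Ces5a (0.92), of which Acta2, Kcnmb1 and Actg2 are smooth muscle genes. Dcn was closest to Slc6a13 (0.74), Postn (0.68) and Fgl2 (0.68), and Lum to Aldh1a2 (0.71), Pla2g2d (0.70) and Mgl2 (0.68). Among the members themselves Ogn and Fmod (0.78) and Prelp and Ogn (0.71) were closest, Prelp and Efemp1 stood at 0.51, and Bgn and Efemp1 at -0.12.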

How the data were processed

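Each of the 7 deposited files is a gene by barcode table of unscaled UMI counts. Per the file headers they were written by Cell Ranger 3.0.2, and the submitters' processing notes name mm10 as the genome. The sources used here do not give the annotation release or whether strand was used. The kit counts transcript 3' ends, so a level does not depend on transcript length, and free RNA in droplets can add UMIs to any cell. Barcodes with under 500 genes or over 10% mitochondrial UMIs, and 310 doublet calls among all barcodes (scrublet in scanpy 1.11.5, expected rate 0.06), were left out. Cells were scaled to 10000 UMIs, logged and clustered on 30 principal components of 2000 variable genes without the 7 members (15 neighbours, Leiden resolution 1.5, seed 1). A class needed at least 3 markers raised at least 2-fold in at least 10% of cells, with its 10 leading genes holding no more markers of another class. A cluster also stayed unnamed with another class ahead in passing markers and none of its own leading, or with median UMIs under 1/3 of the library's. This scoring rule was chosen after seeing the data, and 1491 cells stayed unnamed.

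Counts were summed per class and library with at least 20 cells. Sums of astrocyte-like cells held 275843 to 8878186 UMIs, which puts 3 counts at 0.338 to 10.9 CPM. The stage test on these sums used edgeR 4.0.16 under R 4.3.3, with TMM, filterByExpr, its quasi-likelihood test and Benjamini-Hochberg adjustment at 0.05. The script was first tested on simulated data. Alternatives were DESeq2 1.42.0 with its size factors, no filter, 50 or 15 cells per sum, each library left out, members kept in clustering, a 20% mitochondrial limit, doublets kept and means over cells. The 15-cell setting was added after seeing the data. Pairs of single libraries got ratios with exact conditional 95% intervals, which cover counting error only.

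Positions are from GENCODE M21, which matched 30934 of 31053 genes, and promoters from RefSeq (GRCm38.p6), which matched 5 of the 7 members. The members and gene lists were chosen with earlier results of these data known. Named genes were the 7 members, the 3 genes closest to each in pattern, and up to 3 called genes per list and fit. Single list genes that were not called and are named (Fbln2, Chadl, Aspn, Ecm2, Kera, Epyc) were chosen after their values were seen. Python 3.11.15, scipy 1.17.1 and matplotlib 3.10.9 were used.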

Additional observations from a re-analysis of the deposited data

Results flagged for a closer look

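In 4 cases 1 early library stood apart from the other 3 of its group by a gap that is large for the range of the group. The measure was Dixon's criterion for 4 values, which flags about 1 group in 20 by chance when values are normally distributed. These groups hold few UMIs, so that rate does not carry over and the 4 cases cannot be set against chance. Dcn in excitatory neuron-like cells was 4.59 CPM in P7 SVZ. Efemp1 in excitatory neuron-like cells was 6.90 CPM in P15 cortex. Efemp1 in radial precursor-like cells was 0 CPM in P15 cortex, the smallest of the 4 sums, with an upper limit of 6.70 CPM. Fmod in astrocyte-like cells was 2.10 CPM in P15 cortex and 0 in the other early libraries.

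The difference of Bgn between stages had opposite signs in different classes. The adult minus early mean was 156 CPM in COP-like cells, -41.8 in astrocyte-like cells and -246 in endothelial-like cells, with groups that did not overlap in any of the 3, which also held for 27.4%, 25.1% and 39.8% of all genes tested in these classes. The endothelial-like difference passed its test, in which Bgn passed the low-count filter through the early libraries alone. The COP-like one did not pass (adjusted p = 0.334, edgeR), and the astrocyte-like one was not tested. The difference between the classes was not tested.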

How the results depend on the processing

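No paired analysis was possible because the labels give no replicate numbers. Of 46 levels with at least 10 UMIs, 45 stayed within their counting interval with the members among the clustering genes, and all 46 with doublets kept. Under a 20% mitochondrial limit all 45 that had a value stayed within it. The missing level was Bgn in astrocyte-like cells of P2 cortex. That library had no astrocyte-like sum of at least 20 cells under this limit, so its astrocyte-like levels were not checked there. As a mean over cells 6 moved, among them Bgn in astrocyte-like cells of P7 cortex (40.5 CPM). The ratios between regions, run under the mitochondrial limit alone, stayed within their intervals.

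Counts of called genes moved with many choices, and the cause was not tested. In astrocyte-like cells the 57 became 691 without the filter, 944 with DESeq2 and 0 to 2583 when 1 library was left out. In COP-like cells the 3 became 175, 88 and 0 to 84. In endothelial-like cells the 415 became 898 without the filter and 118 with at least 50 cells per sum, and ran from 118 to 641 without 1 library, where without P7 or P15 cortex the lone early sample is assumed to vary like the adult ones.

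The Bgn log2 fold change in endothelial-like cells was -9.89 to -5.26 without 1 library. With at least 50 cells, which drops P60 white matter, it was -6.64 (adjusted p = 0.0507, edgeR). In COP-like cells it was 2.34 to 4.01 without 1 library (0.0401 to 0.843) and 2.71 without the filter (1.2e-05), but 3.02 with DESeq2 (0.534). Early and adult mean CPM of Prelp, Efemp1 and Bgn in astrocyte-like cells moved by less than 1 SD without any 1 library, but the early SDs are nearly as large as the early means or larger. The pooled ratios between stages, left-out libraries chosen after seeing the data, were 23.0 to 89.2 for Prelp, 10.9 to 42.5 for Efemp1 and 26.3 to 132.8 for Bgn. Depth limits the mural-like and fibroblast-like values most, where 3 counts are 18.4 CPM or more in a mural-like sum.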
